A study of Mus musculus with 50 samples.

Results

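The genes of the cytosolic ribosomal proteins were followed over 50 mammary gland tumors, with Rpl30 set against the rest of the family. Members were taken by name from the RPKM table (reads per kilobase of gene length and per library size): names made of Rpl or Rps and a number, with or without an a, x, l, al or l1 ending, together with Rplp0, Rplp1, Rplp2 and Rpsa. Names with -ps and Gm names, which mark pseudogenes and unnamed genes, were left out. This gave 84 of the 37701 genes in the table, of which 32 are counted by name to the small (40S) subunit and 52 to the large (60S) subunit. The rule also takes in paralogs, and Rps12l1, which is annotated as a processed pseudogene. Of the 84 members, 83 were among the 16733 genes with a mean of at least 0.5 RPKM that were tested. Rpl10l was not, since it reached at most 0.245 RPKM in any tumor. By their names, genes such as Fau and Rps3a1, which also encode ribosomal proteins, fall outside the rule.

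All tumors came from female p53R270H/+WAPCre mice, in which Cre recombinase under the Wap promoter switches on a mutant p53 allele in mammary epithelium. From 8 weeks of age the mice were injected under the skin every other day with vehicle, insulin, glargine, X10 or IGF1 until a tumor had grown, and the tumor was taken at 1 cm3, 24 h after the last injection. Each of the 5 treatment groups holds 10 tumors from separate mice, chosen by the study as EMT-like with a latency near the median of the group. The tumors titled untreated were taken as the vehicle group. Glargine and X10 are insulin analogues: in X10 a histidine of the B chain is replaced by aspartic acid, and glargine has arginines added to the end of the B chain and a glycine at the end of the A chain. IGF1 is insulin-like growth factor 1, a separate hormone. No dose is given in the sample labels, so differences between compounds are differences between the injections as given. Injections ran until a tumor grew, and the paper reports a significantly shorter latency with X10 and IGF1. Compound, age of the mouse and number of injections therefore cannot be told apart in these comparisons. Tumors are named by their titles in the sample labels, a treatment and a mouse number.

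Ribosomal protein mRNAs are among the most abundant in a growing cell. Most of them start with a run of pyrimidines, the TOP motif, through which mTOR and the RNA-binding protein LARP1 control how strongly they are translated, and the insulin receptor and the IGF1 receptor both signal to mTOR. The cytosolic ribosome holds nearly the same amount of each of its proteins, so the genes are usually expressed together. Many of the genes have left intron-less copies, processed pseudogenes, over the genome, whose sequence is almost that of the mRNA.

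The steps of the RPKM values gave library sizes of 26.7 to 51.9 M reads (median 40.9 M), and the X10 group had the lowest group median, 35.4 M against 39.8 to 44.0 M in the other groups. Levels of bulk tumors cannot tell fewer cells of a type from less RNA per cell. The fibroblast and mesenchymal marker Vim was at 1094 RPKM or more in every tumor, and the epithelial marker Krt8 was between 2.39 and 1616 RPKM.

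The start of the member genes is shown first, since the TOP motif sits there. Windows of 35 bases before and 20 bases after the annotated transcription start were available for 63 members (RefSeq, GRCm38.p6). In the sequences below the capitals mark the longest run of C and T that begins, ends or lies within 10 bases of the start. Rps6 is the subunit phosphorylated by the S6 kinases, Rpl7a and Rps26 have runs of 21 and 9 bases, and Rps27l and Rpl3l are paralogs that are described further on.
Rps6, chr4:86857348-86857402, minus strand: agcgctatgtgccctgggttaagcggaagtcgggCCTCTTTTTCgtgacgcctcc
Rpl7a, chr2:26910772-26910826, plus strand: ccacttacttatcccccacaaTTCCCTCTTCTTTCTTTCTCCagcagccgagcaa
Rps26, chr10:128626487-128626541, minus strand: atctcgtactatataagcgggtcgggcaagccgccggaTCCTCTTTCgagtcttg
Rps27l, chr9:66946051-66946105, plus strand: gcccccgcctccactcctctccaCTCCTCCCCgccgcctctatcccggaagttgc
Rpl3l, chr17:24727791-24727845, plus strand: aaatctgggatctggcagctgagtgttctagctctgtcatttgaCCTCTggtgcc
A run of at least 6 pyrimidines lay near the start in 38 of the 63 members (60.3%) and in 32.7% of 27025 annotated genes. A run of at least 8 was found in 29 members (46.0%) and in 15.8% of all genes, and the median run was 7 bases in members and 4 in all genes. A run is a description of the annotated window and was not tied to where transcription began in these tumors.

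Members were expressed at a high level in all treatment groups. The median of the mean RPKM was 414 over the 83 tested members, with quartiles of 278 and 616, and 10.2 over all tested genes. On average 76 members were above 100 RPKM, and 37 of the 200 most expressed genes in the table were members. RPKM is per gene length, but near-identical copies hold a part of gene plus copies that differs widely between members, as described below, so the order given here is that of the deposited values. Rplp0, which forms the base of the stalk that recruits translation factors, had the highest mean (2158 RPKM, from 1155 in X10_116 to 3821 in IGF1_160). Its partner in the stalk Rplp1 (1264 RPKM), Rpl8 (1244) and Rps15 (975) were also among the highest. The lowest means were those of Rpl10l (0.022 RPKM), Rpl3l (1.55), Rpl39l (7.45), Rpl7l1 (37.5) and Rpl29 (48.3). The medians of the subunits were near each other, at 421 RPKM for the 40S and 414 RPKM for the 60S members.

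**Figure D1:**
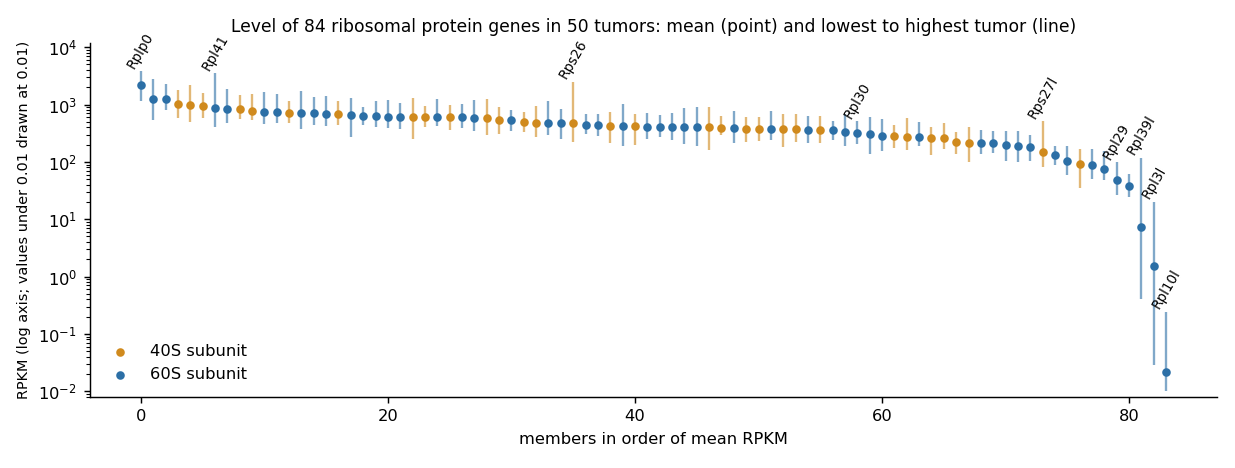
RPKM (log axis, values under 0.01 drawn at 0.01) of the 84 members in order of their mean; points are means over the 50 tumors, lines run from the lowest to the highest tumor, and colors separate 40S and 60S members. Most members lie in a narrow band above 100 RPKM, Rpl39l, Rpl3l and Rpl10l fall far below it, and the lines of Rps26, Rpl41, Rps27l and Rpl39l reach up to a tumor that stands apart.

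The members moved together from tumor to tumor. The correlation of a member with the median of the other members, on log2(RPKM + 0.5) over the 50 tumors, had a median of 0.78, and 75 of 83 members were above 0.5. For the 16650 other tested genes the median was 0.016, and 7.26% were above 0.5. These tumors share their library scaling and purity across genes, so the correlation is a description. Rps10, Rpl28 and Rpl27a followed the family most closely (each 0.92), and the lowest values were those of Rpl39l (0.21), Rps27l (0.23) and Rpl3l (0.26). Rpl30, a 60S protein that in yeast also controls the splicing of its own transcript, was at 0.49. X10_116 was the lowest tumor for most members, and IGF1_160 and Untreated_195 were often the highest. Genes that are not members but were closest to the family median were Fau (0.84), whose product is cleaved into a ubiquitin-like protein and the ribosomal protein S30, and Mrpl23 (0.83), of the mitochondrial ribosome.

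The SD over tumors on the log2 scale had a median of 0.36 over members. Rpl7 (0.23), Rpl4 (0.24), Rpl7a (0.24), Rpl7l1 (0.25) and Rps3 (0.26) had the smallest SD. The largest SDs were found for Rpl3l (1.29), Rpl39l (1.28), Rps12l1 (0.61), Rps26 (0.60) and Rpl41 (0.55), and each of these except Rps12l1 had a tumor that stood far from the rest.

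As a share of the summed RPKM of a tumor, the family took 5.96 ± 1.12% (SD, n = 10) in vehicle, 5.25 ± 0.458% in insulin, 5.67 ± 1.16% in glargine, 5.73 ± 1.18% in X10 and 6.34 ± 1.21% in IGF1 tumors. The ranges were 4.75 to 8.00% in vehicle, 4.46 to 5.81% in insulin, 4.53 to 8.32% in glargine, 3.93 to 8.27% in X10 and 4.76 to 9.04% in IGF1 tumors. All groups overlapped, the insulin group had the narrowest spread, and the lowest and highest tumors were X10_116 and IGF1_160.

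Treatments were compared by limma on log2(RPKM + 0.5), in 1 fit of the 5 groups, and p-values were adjusted by Benjamini-Hochberg over the 16733 tested genes. Comparisons against a common group share those tumors and are not independent of each other. Members also move together from tumor to tumor, as given above. A count of members in a comparison is therefore not a count of independent observations, and its share is a description beside that of all genes. Each compound was first compared with vehicle, to find the genes that differ after chronic stimulation of the insulin and IGF1 receptors.

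Between insulin and vehicle, most members were lower in insulin tumors, but none passed the test. The median log2 difference was -0.18 over members, with 79 of 83 below zero, and 0.03 over all tested genes. No member had an adjusted p under 0.05 (limma, 0% of all genes), and 11 members had an unadjusted p under 0.05, all lower in insulin (13.3%, against 11.1% of all genes). Rpl31, next to the exit of the peptide tunnel, was between 213 and 427 RPKM in vehicle tumors (median 326) and between 191 and 259 RPKM in insulin tumors (median 232). The groups overlapped, and the log2 difference was -0.43 ± 0.142 (SE, limma, Benjamini-Hochberg adjusted p = 0.301). Rpl38, which is needed for the translation of certain Hox mRNAs, differed by -0.52 ± 0.176 (adjusted p = 0.306), from 405 to 940 RPKM in vehicle and from 328 to 497 RPKM in insulin tumors. Rps21 differed by -0.39 ± 0.145 (adjusted p = 0.342). The 6 epithelial markers were also all lower in insulin tumors (median -0.59), as were all 3 adipocyte markers (median -0.35). All 5 mesenchymal and fibroblast markers (median 0.10) and 4 of 5 leukocyte markers (median 0.55, 1 with an unadjusted p under 0.05) were higher, and the part of the markers in the values of the members was not tested.

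Between glargine and vehicle the median log2 difference was -0.06, with 56 of 83 members below zero (all genes 0.02). No member passed (limma, 0% of all genes), and 1 member, Rpl38, had an unadjusted p under 0.05 (1.2%, against 6.23% of all genes). Its log2 difference was -0.41 (limma, Benjamini-Hochberg adjusted p = 0.789), and the 95% confidence interval, from -0.76 to -0.06, is not adjusted for the number of genes. Rpl37a and Rps14, with -0.29 each, came next by p. With the share of RPKM in Gm and -ps genes as a covariate, 20 members had an unadjusted p under 0.05, all lower in glargine (24.1%, against 9.36% of all genes in that fit). All 3 adipocyte markers (median 1.03, 1 with an unadjusted p under 0.05) and both milk markers (median 1.98, both with an unadjusted p under 0.05) were higher in glargine tumors, 4 of 6 epithelial markers were lower (median -0.31), and their part was not tested.

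Between X10 and vehicle the family median was -0.12, with 61 of 83 members below zero, and that of all genes was -0.03. No member passed the threshold (limma, 0.0657% of all genes did), and 3 had an unadjusted p under 0.05 (3.61%, against 11% of all genes). Rpl30 was the only member of these 3 that was higher in X10 tumors, with a log2 difference of 0.35 ± 0.123 (adjusted p = 0.292). Rpsa, which is also known as the laminin receptor precursor, had a log2 difference of -0.45 ± 0.201 (limma, Benjamini-Hochberg adjusted p = 0.410), and Rpl18 one of -0.39 (adjusted p = 0.422). Rpsa was between 350 and 1097 RPKM in vehicle tumors and between 251 and 711 RPKM in X10 tumors, so the groups overlapped widely. Without the tumor X10_95, which stood apart in several members as described below, 15 members had an unadjusted p under 0.05, 14 of them lower in X10 tumors (18.1%, against 12.8% of all genes in that fit). With all tumors scaled to the same family median, which takes out a shift of the whole family, 12 members were higher and 1 lower at that cut (15.7%, against 5.68%). Of the epithelial markers 3 were higher and 3 lower in X10 tumors (median -0.05), 4 of 5 mesenchymal and fibroblast markers were lower (median -0.12) and all 4 skeletal muscle markers were higher (median 0.43), and their part was not tested.

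Between IGF1 and vehicle most members were higher in IGF1 tumors, with a median of 0.10 and 66 of 83 above zero (all genes 0.02). No member passed (limma, 0.00598% of all genes did), and 2 had an unadjusted p under 0.05, both higher in IGF1 (2.41%, against 8.84% of all genes). Rpl30 was among them, with a log2 difference of 0.26 (limma, Benjamini-Hochberg adjusted p = 0.537). Rpl29 had a difference of 0.25. In the same comparison 6 of 6 epithelial markers (median -1.36, 3 with an unadjusted p under 0.05) and 4 of 5 mesenchymal and fibroblast markers (median -0.59) were lower in IGF1 tumors, and their part in the values of the members was not tested.

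Each compound was also compared with insulin, the parent of glargine and X10. In glargine tumors the family median was 0.12 higher on the log2 scale, with 72 of 83 members above zero and a median of -0.01 over all genes. No member passed (limma, 0% of all genes), and 1 member, Rpl30, had an unadjusted p under 0.05 (1.2%, against 3.96% of all genes). Its difference was 0.29, with a 95% confidence interval from 0.05 to 0.54 and an adjusted p of 0.990 (limma, Benjamini-Hochberg). Rps25 and Rps27a, which is made as a fusion with ubiquitin, followed with 0.23 and 0.28. All 3 adipocyte markers (median 1.09, 2 with an unadjusted p under 0.05) and both milk markers (median 2.19, both with an unadjusted p under 0.05) were also higher in glargine tumors, whereas 3 of 6 epithelial markers were higher (median 0.08). Their part in the values of the members was not tested.

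Between X10 and insulin the family median was 0.09, with 54 of 83 members above zero, while the median of all genes was -0.07. Rpl30 was the only member that passed the test (1.2% of members, against 0.102% of all genes), and 11 members had an unadjusted p under 0.05, all higher in X10 tumors (13.3%, against 11.3% of all genes). Rpl23, a 60S protein that can bind MDM2, was between 421 and 554 RPKM in insulin tumors (median 478) and between 343 and 958 RPKM in X10 tumors (median 646). Its log2 difference was 0.41 ± 0.147 (limma, Benjamini-Hochberg adjusted p = 0.222), and the X10 tumors lay on both sides of the insulin range. Rpl7 was 0.27 higher (adjusted p = 0.242). With the RPKM of the pseudogene copies added to the members, as described below, Rpl30 no longer passed and 6 members had an unadjusted p under 0.05 (7.32%, against 10.9% of all genes in that fit). Of these, 4 were higher and 2 lower in X10 tumors. When the copies were added by reads, Rpl30 passed. Scaled to the family median, 12 members were higher and 4 lower at that cut (19.3%, against 8.31%). With the share of RPKM in Gm and -ps genes as a covariate, 27 members had an unadjusted p under 0.05, all higher in X10 tumors (32.5%, against 10.2%). Without X10_95 the number was 7 (8.43%, against 12.1%), and Rpl30 still passed. In X10 tumors 5 of 6 epithelial (median 0.63), all 3 adipocyte (0.30) and both milk markers (0.61) were higher and 4 of 5 mesenchymal and fibroblast markers were lower (-0.25), none with an unadjusted p under 0.05, and their part was not tested.

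Between IGF1 and insulin the family stood further apart than in any other comparison, although no member passed the test (limma, 0.00598% of all genes did). The median difference was 0.27 over members and -0.01 over all genes, with 81 of 83 members above zero (47.4% of all genes), and it was 0.29 for 40S and 0.25 for 60S members. An unadjusted p under 0.05 was found for 28 members, all higher in IGF1 tumors (33.7%, against 7.3% of all genes). After Rpl30, the smallest p belonged to Rpl8 and Rpl10a. Rpl8, of the 60S subunit, was between 819 and 1216 RPKM in insulin tumors (median 1088) and between 898 and 2100 RPKM in IGF1 tumors (median 1500), a log2 difference of 0.42 ± 0.141 (limma, Benjamini-Hochberg adjusted p = 0.539). Rpl10a, which lies at the site where tRNAs leave the ribosome, was between 287 and 396 RPKM in insulin and between 324 and 725 RPKM in IGF1 tumors, a difference of 0.42 ± 0.143 (adjusted p = 0.539). When the RPKM of the processed pseudogenes was added to the members, as described below, the number of members with an unadjusted p under 0.05 was 16 (19.5%, against 7.23% of all genes in that fit). With the level of chromosome 15 as a covariate it was 43, all higher in IGF1 tumors (51.8%, against 8.87%). Scaling all tumors to the same family median takes out a shift of the whole family by construction, and 1 member then had an unadjusted p under 0.05 (1.2%, against 17.8%). In the same comparison 6 of 6 epithelial markers (median -0.95) and 4 of 5 mesenchymal and fibroblast markers (median -0.63) were lower in IGF1 tumors, and their part was not tested.

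The 20 tumors of the X10 and IGF1 groups, compounds that activate the IGF1 receptor strongly, were also set against the 30 tumors of the vehicle, insulin and glargine groups. The family median was 0.07 higher (0.07 for each subunit), with 70 of 83 members above zero, against -0.02 and 43.6% of all genes. Rpl30 was the only member past the threshold (1.2%, against 0.155% of all genes, 26 genes of which 24 were lower), and 13 members had an unadjusted p under 0.05, all higher (15.7%, against 10.5% of all genes). The call of Rpl30 was lost when the RPKM of pseudogene copies was added to the members, as described below (0.23, limma, Benjamini-Hochberg adjusted p = 0.218), and kept when they were added by reads (0.32, adjusted p = 0.0491). Besides Rpl30 the 13 members included Rps2, Rps14, Rps20, Rpl5, Rpl8, Rpl10, Rpl21, Rpl23, Rpl36a, Rpl36al and Rpl37. Rpl23 differed by 0.29 ± 0.0951 (limma, Benjamini-Hochberg adjusted p = 0.191), Rps2, at the mRNA entry of the 40S subunit, by 0.27 ± 0.0906 (adjusted p = 0.193) and Rpl36a by 0.28 ± 0.1003 (adjusted p = 0.252). Without X10_95, 9 members had an unadjusted p under 0.05 (10.8%, against 10.5% of all genes in that fit) and the family median was 0.03. The share of RPKM in Gm and -ps genes was lowest in X10 tumors (5.21%, against 6.19 to 7.07% in the other groups), and with this share as a covariate the family median was 0.19 and 36 members had an unadjusted p under 0.05, all higher (43.4%, against 9.45% of all genes in that fit). The part of these values in the comparison was not tested.

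**Figure D2:**
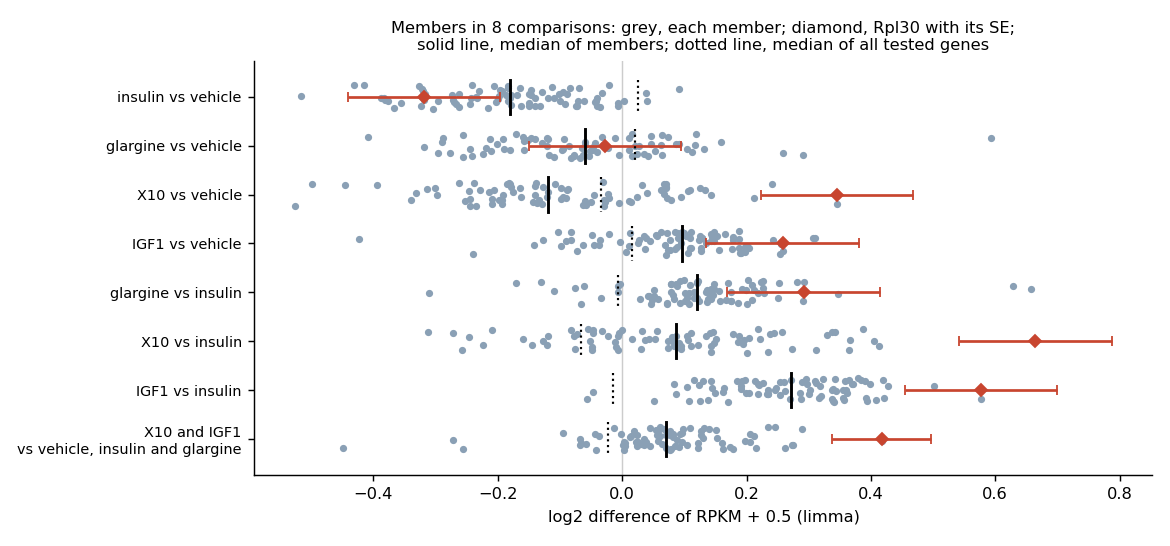
Log2 difference of each of the 83 tested members (points) in the 8 comparisons, with Rpl30 as a diamond with its SE, the median of the members as a solid line and the median of all tested genes as a dotted line. In IGF1 against insulin 81 of 83 members lie above zero and in insulin against vehicle 79 of 83 lie below, while the medians of all genes stay between -0.07 and 0.03.

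Members with a known role outside translation, or at a named place of the ribosome, were read in the same comparison of X10 and IGF1 with the other groups. Rps6, whose protein is phosphorylated downstream of mTOR, did not differ detectably. It was between 286 and 512 RPKM in vehicle, 295 and 447 in insulin, 291 and 602 in glargine, 236 and 582 in X10 and 281 and 547 in IGF1 tumors, with a log2 difference of 0.00 (95% confidence interval from -0.18 to 0.19, limma, Benjamini-Hochberg adjusted p = 0.997). Its unadjusted p was 0.216 or more in each of the 8 comparisons. Rpl5 and Rpl11, which bind MDM2 together with the 5S RNA and thereby stabilize p53, differed by 0.21 (adjusted p = 0.365) and 0.08 (adjusted p = 0.871). Rpl10, which is added late in the assembly of the 60S subunit, differed by 0.16 (adjusted p = 0.4657). The stalk genes Rplp0, Rplp1 and Rplp2 differed by 0.02, -0.07 and 0.10 (adjusted p of 0.967, 0.916 and 0.854), and Rpsa by -0.04 (adjusted p = 0.958). For Rplp0 the 95% confidence interval of the difference ran from -0.16 to 0.21.

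Rpl30 itself (ENSMUSG00000058600) was between 203 and 424 RPKM in vehicle tumors, with a median of 310. In insulin tumors it was between 202 and 290 RPKM (median 241), in glargine tumors between 235 and 418 (median 269.5), in X10 tumors between 293 and 473 (median 393) and in IGF1 tumors between 269.1 and 515 (median 357). All 10 X10 tumors and 9 of 10 IGF1 tumors lay above the highest insulin tumor, whereas only 3 X10 and 2 IGF1 tumors lay above the highest vehicle tumor, and also above the highest glargine tumor. The means were 309 ± 63.7 (SD, n = 10) in vehicle, 244 ± 33.7 in insulin, 303 ± 68.96 in glargine, 389 ± 62.1 in X10 and 367 ± 70.2 RPKM in IGF1 tumors. In order of the means, X10 and IGF1 are neighbours that overlap over most of their range, as do vehicle and glargine, while IGF1 against vehicle and glargine against insulin, the other neighbours in this order, missed the threshold.

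Rpl30 was higher in X10 than in insulin tumors by 0.66 ± 0.123 on the log2 scale (95% confidence interval from 0.42 to 0.91, limma, Benjamini-Hochberg adjusted p = 0.00918), a call that was lost when the RPKM of its pseudogene copies was added. For X10 and IGF1 against the other groups the difference was 0.42 ± 0.0791 (limma, Benjamini-Hochberg adjusted p = 0.0129), which was also lost with that RPKM added (0.23, adjusted p = 0.218). It was 0.58 ± 0.123 for IGF1 against insulin (adjusted p = 0.178). Against vehicle, insulin tumors differed by -0.32 (adjusted p = 0.346) and glargine tumors by -0.03 (95% confidence interval from -0.27 to 0.22, adjusted p = 0.980). Rpl30 was singled out with earlier results of these data known, so these values are not independent evidence. Among the 83 members, ranked by signed difference, it had the highest value in X10 against vehicle, X10 against insulin, IGF1 against insulin and the pooled comparison. Its rank was 3 in IGF1 against vehicle, 4 in glargine against insulin, 69 in insulin against vehicle and 32 in glargine against vehicle. The next member in the pooled comparison was Rpl23 (0.29), and in X10 against vehicle it was Rpl36a (0.24).

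Relative to the median of the other members in the same tumor, Rpl30 was at -0.54 in vehicle, -0.64 in insulin, -0.47 in glargine, -0.02 in X10 and -0.35 in IGF1 tumors on the log2 scale. The X10 tumors had the widest range, from -0.84 to 0.52, and X10_118 and X10_116 had the highest values of the 50 tumors. The lowest was that of insulin_37 (-0.92). X10 and IGF1 tumors together were 0.37 above the other groups on this scale, compared with a difference of 0.42 in the level itself.

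Rpl30 has near-identical processed pseudogenes, and reads from these and from the gene cannot be fully told apart. The first 100 coding bases of Rpl30 and of the same stretch in its 4 most expressed copies are given below (GENCODE M21, GRCm38, positions are those of the whole gene or copy), with capitals where a copy differs from the gene.
Rpl30, chr15:34440505-34443640, minus strand: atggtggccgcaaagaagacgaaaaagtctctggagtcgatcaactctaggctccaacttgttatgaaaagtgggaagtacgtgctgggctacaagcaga
Rpl30-ps10, chrX:71803688-71804034, plus strand: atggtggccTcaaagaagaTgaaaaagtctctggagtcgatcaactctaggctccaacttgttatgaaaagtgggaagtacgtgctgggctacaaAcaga
Rpl30-ps8, chr12:99047230-99047574, plus strand: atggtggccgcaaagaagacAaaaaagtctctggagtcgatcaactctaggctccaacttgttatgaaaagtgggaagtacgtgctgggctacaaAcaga
Gm12191, chr11:49678710-49679057, minus strand: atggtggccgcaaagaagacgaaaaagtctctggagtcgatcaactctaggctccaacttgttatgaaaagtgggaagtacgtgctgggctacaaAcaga
Rpl30-ps1, chr6:38376807-38377154, plus strand: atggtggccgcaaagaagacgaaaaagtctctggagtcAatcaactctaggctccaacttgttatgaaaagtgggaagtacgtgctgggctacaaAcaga
Over the 348 coding bases compared, Gm12191 differs at 1 base (99.7% identical) and Rpl30-ps1 at 3 bases. Rpl30-ps10 and Rpl30-ps8, compared over 347 and 345 bases, also differ at 3 bases each (99.1%). Of the 100-base windows of the Rpl30 transcripts, 57.8% also occur elsewhere among the annotated transcripts.

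In the table the 14 copies of Rpl30 held nearly as much RPKM as the gene. RPKM divides by length, and the length recovered from the RPKM steps was 1075 bases for Rpl30 and 347 to 348 bases for its 4 leading copies, so a read counts for more RPKM in a copy than in the gene. Rpl30 had a mean of 323 RPKM, and its leading copies Rpl30-ps10, Rpl30-ps8, Gm12191 and Rpl30-ps1 had means of 86.1, 57.6, 48.5 and 45.8 RPKM. The summed copies were at a mean of 293 RPKM in vehicle, 265 in insulin, 363 in glargine, 284 in X10 and 347 in IGF1 tumors, a pooled difference of 0.00 on the log2 scale. The copies made up 42.1 ± 5.15% (SD, n = 10) of gene plus copies in X10 tumors, 47.3 ± 9.55% in IGF1, 48.9 ± 6.31% in vehicle, 51.7 ± 6.14% in insulin and 54.6 ± 3.21% in glargine tumors. For gene and copies together the group means were 601 RPKM in vehicle, 510 in insulin, 667 in glargine, 673 in X10 and 715 in IGF1, with glargine near X10. On the scale of reads, with each copy weighted by its length, the copies made up 20.2 ± 3.46% of gene plus copies in X10 tumors, 24.2 ± 6.53% in IGF1, 25.1 ± 4.47% in vehicle, 27.4 ± 5.32% in insulin and 29.6 ± 2.72% in glargine tumors, the same order of groups as for RPKM. On that scale gene and copies together were at 410.2 ± 68.1 in vehicle, 337 ± 39.6 in insulin, 429.8 ± 89.8 in glargine, 487 ± 72.96 in X10 and 488 ± 97.4 in IGF1 tumors (SD, n = 10, in RPKM of the gene), and X10 then lay nearer to IGF1 than to glargine.

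**Figure D3:**
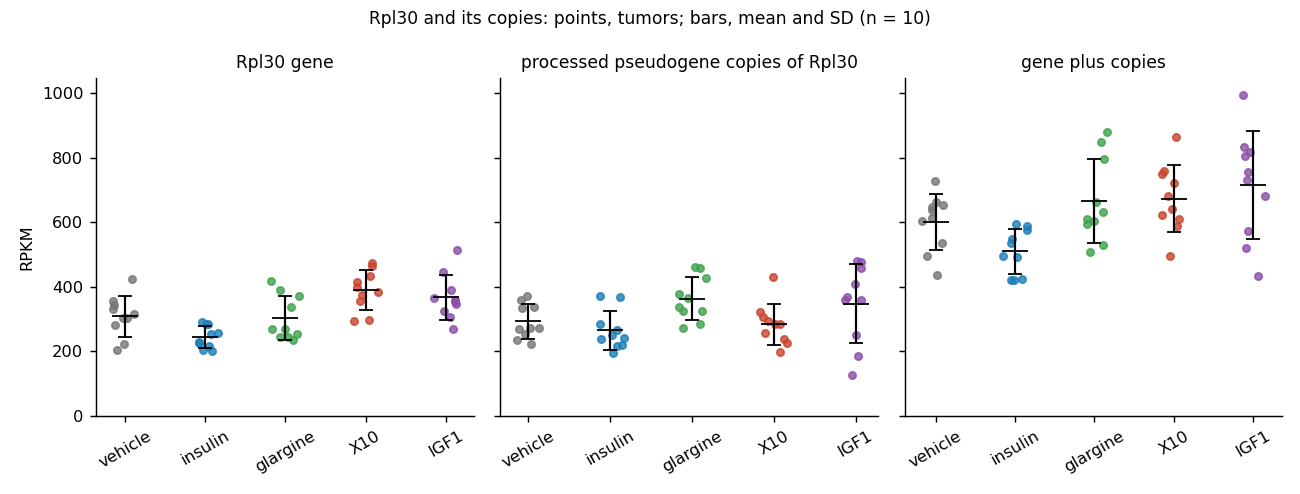
RPKM of the Rpl30 gene, of its summed processed pseudogene copies and of gene plus copies in each group; points are tumors, and bars give the mean with SD (n = 10). All X10 tumors lie above the highest insulin tumor (290 RPKM) for the gene, whereas the copies overlap between all groups. For the plotted sum the means of glargine and X10 are 667 and 673 RPKM, and on the scale of reads, which is not plotted, they are 429.8 and 487.

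With the RPKM of the copies added to each member before the fit, the call of Rpl30 was lost. Its log2 difference between X10 and IGF1 and the other groups was 0.23 (limma, Benjamini-Hochberg adjusted p = 0.218), no member passed in any comparison, and 5 members had an unadjusted p under 0.05 in the pooled comparison (6.1%, against 10.1% of all genes in that fit). With the copies added by reads, so that a read weighs the same in gene and copy, the difference was 0.32 (adjusted p = 0.0491). Rpl30 then passed, close to the threshold, and 5 members again had an unadjusted p under 0.05 (6.1%, against 10.1%). The share of the copies moved with the groups, and its part in the difference of the gene was not tested.

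Most members had copies in the table. Of 5478 processed pseudogenes in the table, 949 were most like a member, 78 members had at least 1 such copy, and for 73 members the copies summed to at least 5 RPKM. In these 73 the copies held a median of 32.8% of the RPKM of gene plus copies, from 0.639 to 84.02%, and 9 members had more RPKM in the copies than in the gene. On the scale of reads the median was 25.9%, from 0.486 to 74.7%, and 5 members had more in the copies. Rpl29, whose level was among the lowest, had 84.02% of its RPKM in 61 copies, and Rps2 had 70.4% in 59 copies. The gene and its copies were positively correlated over tumors in all 73 members, with a median of 0.71. In X10 and IGF1 tumors 64 of the 73 genes were higher and 67 of the 73 copy sums were lower than in the other groups, with medians of 0.08 and -0.23 on the log2 scale. The sums of gene and copies in RPKM had a median of -0.01, and 31 of 73 were higher (34 of 73 on the scale of reads). The ratio of copies to genes was 0.394 in vehicle, 0.444 in insulin, 0.484 in glargine, 0.337 in X10 and 0.388 in IGF1 tumors.

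**Figure D4:**
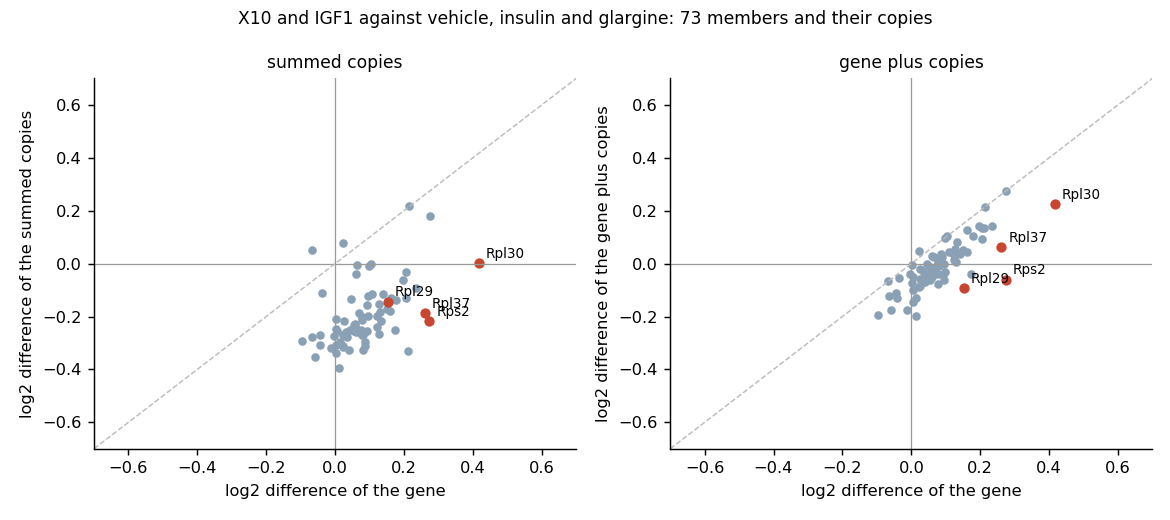
Log2 difference between the X10 and IGF1 tumors and the other groups for 73 members with copies of at least 5 RPKM in sum: the gene (x axis) against its summed copies (left) or against gene plus copies (right), with the dashed line at equal differences. Most genes lie above zero (64 of 73) and most copies below (67 of 73), the sums lie around zero with a median of -0.01, and Rpl30 lies farthest to the right.

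Members differed in how much sequence they share. Over the 83 protein-coding members, Rpl10l included and Rps12l1 left out, at least 1 100-base window was shared with another annotated transcript in 75, and the median member shared 23.5% of its windows. Rpl36a (83.6%), Rps6 (83.6%), Rpl35 (83.0%) and Rpl5 (82.7%) shared the most, Rpl37 shared 21.5%, Rpl23 19.5% and Rpl8 1.37%, and Rps27l shared none. Values of the members with a high share are the more uncertain.

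The pattern of Rpl30 over tumors was most like that of genes on its own chromosome. Of the genes that are not members, Pfdn5 (r = 0.79, rho = 0.80), Cct5 (0.77 and 0.78), Slc25a17 (0.75 and 0.73), Atp5g2 (0.75 and 0.74) and Commd5 (0.74 and 0.72) were closest over the 50 tumors. All 10 of the closest genes lie on chromosome 15, and of the 100 closest protein-coding genes 60 do, although the chromosome holds 3.99% of the 13520 protein-coding genes tested. Over all tested protein-coding genes there that are not members, the median r with Rpl30 was 0.11, so the close genes are a part of the chromosome. Pfdn5 and Cct5 encode subunits of the prefoldin and CCT chaperones, and Slc25a17 and Atp5g2 encode a peroxisomal carrier and a subunit of the mitochondrial ATP synthase. Among members, Rpl37 (0.78) was closest, and it lies on chromosome 15, as does Rpl8 (0.68), while Rpl36a (0.70) lies on the X chromosome and Rpl5 (0.70) on chromosome 5.

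Rpl3 is the remaining member on chromosome 15, and its protein reaches toward the peptidyl transferase center. Between X10 and IGF1 and the other groups, Rpl30, Rpl37, Rpl8 and Rpl3 differed by 0.42, 0.26, 0.25 and 0.06 on the log2 scale, and of these Rpl30 was the only one that passed (adjusted p of 0.368, 0.264 and 0.884 for the others, limma, Benjamini-Hochberg). Rpl37 was between 101 and 307 RPKM in vehicle, 112.6 and 201 in insulin, 135.9 and 285 in glargine, 146 and 252 in X10 and 135.02 and 351 in IGF1 tumors, and the groups overlapped. Over all protein-coding genes of chromosome 15 the median pooled difference was 0.08 and 73.5% were above zero, the highest of any chromosome. The median level of the chromosome, each gene centred, was -0.046 in vehicle, -0.073 in insulin, -0.014 in glargine, 0.006 in X10 and 0.073 in IGF1 tumors. With this level as a covariate the difference of Rpl30 was 0.35 (limma, Benjamini-Hochberg adjusted p = 0.0373).

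Several members have a paralog with a narrower pattern of expression, and most paralogs did not follow their parent. Rps27l, a target of p53, had a mean of 147.2 RPKM against 402 RPKM for Rps27, a ratio that ran from 15.4 to 157.96% over tumors with a correlation of 0.20. Rpl22l1 was at 103 RPKM, 17.2% of Rpl22, with a range of 7.99 to 43.8% and a correlation of 0.05. Rpl36al was at 88.1 RPKM, 41.1% of Rpl36a, with a correlation of 0.49. Rpl7l1, which takes part in ribosome assembly, was at 37.5 RPKM, 8.54% of Rpl7 (r = 0.09). Rps12l1 was at 22.5% of Rps12 and followed it most closely (r = 0.86), and it is the only member annotated as a processed pseudogene.

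Rpl39l, the testis form of the tunnel protein Rpl39, was at 1.80% of its parent on average and had a median of 2.68 to 6.31 RPKM in the 5 groups. In Untreated_197 it reached 119 RPKM, or 26.1% of Rpl39, and the next highest tumor was at 28.0 RPKM. Its difference between X10 and IGF1 and the other groups was -0.45 on the log2 scale, with an unadjusted p of 0.222 by limma. Rpl10l, the testis form of Rpl10, was near zero in all tumors.

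Rpl3l, the form of Rpl3 that striated muscle uses, was below 1 RPKM in 38 of 50 tumors. It was highest in glargine_64 (20.0 RPKM), followed by Untreated_186 (7.65) and X10_105 (6.21). The muscle creatine kinase Ckm was at 728, 450 and 362 RPKM in these tumors, against a median of 0.583 RPKM over all tumors. Over the 50 tumors Rpl3l followed the mean of the skeletal muscle markers Acta1, Ckm, Myh4 and Tnnt3 with r = 0.911 and rho = 0.825, and the permutation p of 1e-05 for each is the smallest that 100000 resamples can give. Without the 2 tumors farthest from the median r was 0.907, and within groups it was 0.921. This relation was the only one of its kind that was tested, and it was chosen after the values were seen.

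A few members stood more than 1 log2 unit apart from the family in 1 tumor, and the genes beside them were read as well. Rps26, which lies at the mRNA exit of the 40S subunit, was at 2488 RPKM in X10_95, while the other tumors had a median of 401 and at most 770 RPKM. Rpl41, the smallest ribosomal protein, was at 3532 RPKM in the same tumor, with a median of 742 and a maximum of 1664 RPKM elsewhere. Both lie on chromosome 10, 0.0764 Mb apart. Within 500 kb, 33 of 37 neighbours of Rps26 and 36 of 40 neighbours of Rpl41 were more than 1 log2 unit above their median in that tumor, compared with 4.45% of all genes.

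The stretch from Xrcc6bp1 to Mettl7b, 2.09 Mb long, held 74 protein-coding genes, of which 62 were more than 1 log2 unit above their median and 54 had their highest value of all 50 tumors in X10_95. Among these were the cell cycle kinases Cdk4 (1224 RPKM, median of the other tumors 214) and Cdk2 (39.1 against 11.7), the nascent chain binding Naca (165 against 38.6), Atp5b (3974 against 923) and the growth regulator Pa2g4 (784 against 164). The ends of the stretch were set after the values were seen, and the number of gene copies was not measured here.

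**Figure D5:**
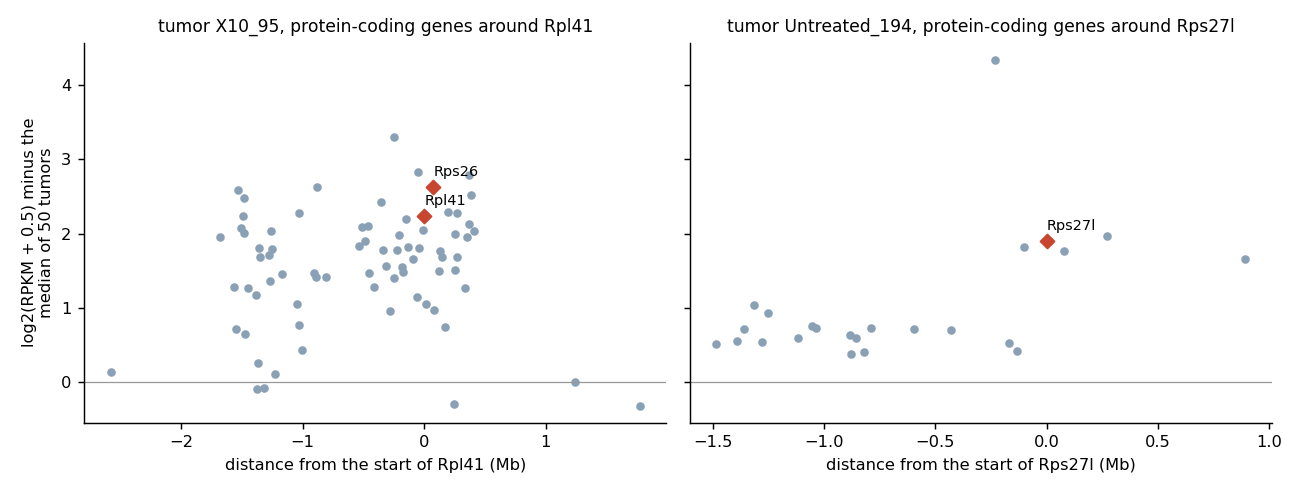
Log2(RPKM + 0.5) in 1 tumor minus the median of the 50 tumors for protein-coding genes, against the distance from the start of Rpl41 in X10_95 (left) and of Rps27l in Untreated_194 (right) along the chromosome in Mb; diamonds are members. In X10_95 most genes between -1.68 and 0.41 Mb lie more than 1 log2 unit up, and in Untreated_194 this holds for few genes, with Car12 the highest.

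Rps27l was at 511 RPKM in Untreated_194, with a median of 134.6 and a maximum of 228 RPKM in the other tumors, and 5 of its 8 neighbours within 500 kb were more than 1 log2 unit up (4.16% of all genes). All 6 genes from Rab8b to Vps13c, Rps27l included, over 0.997 Mb, had their highest value in this tumor, and Car12, 0.232 Mb from Rps27l, was at 307 RPKM against a median of 14.4. Rps7 was at 572 RPKM in insulin_37 (median 266), with 3 of 4 neighbours more than 1 log2 unit up. For Rpsa in Untreated_189 (1097 RPKM) none of 9 neighbours was up by that much. Rps12l1 was low in IGF1_128 (37.0 RPKM).

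Other genes of the translation machinery were read from lists. Of the 22 tested TOP mRNAs and ribosome partners outside the rule, 20 were higher in X10 and IGF1 tumors than in the other groups, with a median of 0.11, but none passed the test. Of all tested genes 43.6% were higher. The 6 genes with an unadjusted p under 0.05 (27.3%, against 10.5% of all genes) were Pabpc1, which binds poly(A) tails, and the initiation factor subunits Eif3e, Eif3h, Eif3k, Eif3l and Eif3m, all higher. Of these Pabpc1, Eif3e, Eif3h and Eif3l lie on chromosome 15, as do 7 of the 22 genes of the list. Eif3e differed by 0.35 ± 0.0855 (limma, Benjamini-Hochberg adjusted p = 0.0599), and Eif3l by 0.25 (adjusted p = 0.0530). In X10 against insulin Eif3m was higher by 0.43 ± 0.0949 and passed (adjusted p = 0.0419), and in IGF1 against insulin 22 of 22 were above zero with a median of 0.21. The elongation factor Eef1a1 (0.08) and the ribosomal gene Fau (0.04) differed little in the pooled comparison.

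Of 32 tested ribosome assembly genes 20 were higher and 12 lower in X10 and IGF1 tumors (median 0.02), none passed, and only Brix1, an assembly factor of the 60S subunit, had an unadjusted p under 0.05 (0.26, adjusted p = 0.148). Of 11 tested genes of growth signalling to the ribosome 4 were higher and 7 lower, none with an unadjusted p under 0.05, and Mtor and Myc differed by 0.00 and 0.02. Marker genes of cell types and of proliferation were read in the same comparison. The study chose EMT-like tumors, so epithelial and mesenchymal markers can come from the tumor cells themselves. Of 6 epithelial markers 5 were lower (median -0.40), although against insulin they were mostly higher in X10 and all lower in IGF1 tumors, as given above. Of 5 mesenchymal and fibroblast markers 4 were lower (median -0.37, 3 with an unadjusted p under 0.05), of 5 leukocyte markers 4 were lower, all 3 adipocyte (median -0.49), both milk (-0.24) and both erythrocyte markers (-0.16) were lower, endothelial and skeletal muscle markers had medians of -0.01 and -0.10, and the proliferation markers Mki67 and Top2a had a median of 0.03. None of the markers passed the test, and their part in the values of the members was not tested. The summed RPKM of the epithelial markers ran from 9.58 to 5098 over tumors, that of the mesenchymal markers from 3430 to 31975 and that of the proliferation markers from 143.1 to 620.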

How the data were processed

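RNA of 50 mammary gland tumors was measured, 10 per treatment group. Per the labels and the study's methods, libraries were made from poly-A RNA and read on an Ion Proton instrument. The authors used TopHat2 2.0.10 with Bowtie2 for alignment to GRCm38 and HTSeq 0.6.1, at default options, for counting, and deposited RPKM, in which the reads of a gene are scaled for its length and for the library. The authors tested genes with DESeq2 1.2.10, and that analysis was not repeated. RPKM are not counts, so no count model was used. Within a gene the values step by whole reads scaled to 100 M, from which library size was recovered.

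Values were analysed as log2(RPKM + 0.5), which understates differences of low genes, over the 16733 genes with a mean of at least 0.5 RPKM, with limma 3.58.1 (R 4.3.3), an intensity trend and Benjamini-Hochberg adjustment, at a threshold of 0.05. The fit was tried on the same tumors with shuffled groups and known shifts added to some genes. Those shifts were larger than any member difference reported here, so recovery of differences of this size was not tested. Gene types and positions are from GENCODE M21 (GRCm38). Processed pseudogenes were assigned to the most similar member with BLAST 2.17.0 (e-value 1e-10). All other values were computed in Python 3.11.15 (numpy 2.4.6, pandas 2.3.3, scipy 1.17.1), and figures were drawn with matplotlib 3.10.9. Start windows were missing for 21 members, Rpl30 among them.

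Named were Rpl30, members past the threshold, the 3 members with the smallest p in each comparison, the 5 highest and lowest by level and by SD, the 3 highest and lowest by correlation with the family, paralogs, members with a known role, members that stood more than 1 log2 unit apart in a tumor at a mean of at least 20 RPKM, and the 5 genes closest to Rpl30. Members and lists were chosen with earlier results of these data known. Alternatives covered pseudocounts, filters, scaling, the trend, the groups in the fit, covariates, pseudogene copies and X10_95. The tumors come from separate mice. Some genes that the rule names are not reported here.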

Additional observations from a re-analysis of the deposited data

Results flagged for a closer look

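For 41 quantities, 205 sets of 10 values from the tumors of a group were searched for a highest or lowest value with a wide gap to the nearest other, and 30 sets held one. A rate of about 1 in 20 would apply to separate, normally distributed values that were not picked beforehand. The members move together, and values such as those of Rpl3l are skewed. Several genes were also picked because a tumor stood apart, so the count cannot be set against that rate. The values that stood apart were not removed from any comparison above, except that X10_95 was left out once.

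In X10_95, Rps26 was at 2488 RPKM and the next X10 tumor at 570.3, Rpl41 at 3532 against 1057 and Rps6 at 582 against 418. Rps27l in Untreated_194 was at 511 RPKM against 179, and Rpl39l in Untreated_197 at 118.5 against 17.5. Rpl3l stood apart in Untreated_186 (7.65 RPKM against 2.21), insulin_9 (5.22 against 1.37), glargine_64 (20.0 against 5.29) and X10_105 (6.21 against 1.65).

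IGF1_160 was the highest IGF1 tumor by a wide gap for Rps27 (898 RPKM against 536), Rpl11 (1160 against 836), Rpsa (1281 against 855), Rpl36al (167 against 117.9), Rpl29 (98.4 against 64.7) and Rps19 (1263 against 807). In glargine_47 the same held for Rpl23 (836 RPKM against 622), Rpl36a (336 against 241), Rpl5 (613 against 457) and Rps19 (1134 against 811). In insulin_37 it held for Rps7 (572 RPKM against 347), Rpl7l1 (53.1 against 39.7), Rps12l1 (122 against 92.8) and Rps2 (362 against 281). Untreated_195 stood apart in Rpl23 (1221 RPKM against 795) and Rps27 (735 against 532), and Untreated_161 in Rpl8 (2303 against 1597). The remaining values were those of Rplp2 in insulin_8 (823 RPKM against 667), Rpl10 in insulin_9 (649.9 against 521), Rpl22l1 in X10_100 (189.4 against 118.3) and Rpl7l1 in IGF1_135 (62.2 against 44.7). IGF1_160 was also the tumor with the highest family share (9.04%).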

How the results depend on the processing

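Each comparison was recomputed under 16 alternatives, 10 of them planned and 6 chosen after seeing the data (library size, the share of Gm and -ps genes or the level of chromosome 15 as a covariate, pseudogene copies added to the members as RPKM or by reads, and leaving out X10_95). Fitting only the compared groups leaves the pooled comparison as it is, and of the other 15 alternatives Rpl30 kept its call between X10 and IGF1 and the other groups in 14. In the 13 of these 15 that add no copies, log2 differences were 0.35 to 0.44 and adjusted p 0.0107 to 0.042 (limma, Benjamini-Hochberg). With copies added by reads, the difference was 0.32 (adjusted p = 0.0491). With the RPKM of the copies added, which gives a read of a shorter copy more weight than a read of the gene, it was 0.23 (adjusted p = 0.218) and 0 members passed in this comparison and in X10 against insulin, where 5 (6.1%, against 10.1% of all genes) and 6 members (7.32%, against 10.9%) had an unadjusted p under 0.05 (limma). In the other 6 comparisons 0 members passed under any alternative.

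The median difference of the members between X10 and IGF1 and the other groups ran from -0.01 with the RPKM of copies added to 0.19 with the Gm and -ps share as a covariate, and the excess of Rpl30 over the family from 0.21, with its -ps genes added, to 0.40. The difference in the family share ran from 0.268 percentage points, without X10_95, to 0.428. In this comparison the number of all genes that passed went from 26 to 1 without Gm and -ps genes, 2 with their share as a covariate, 51 with upper quartile scaling and 141 when tumors were scaled to the family median, and it was 11 over all genes with a nonzero value, 17 at a mean of at least 5 RPKM and 12 with library size as a covariate. The number of members with an unadjusted p under 0.05 ran from 5 (6.1%, against 10.1% of all genes in that fit) to 36 (43.4%, against 9.45%) in this comparison. It ran from 6 (7.32%, against 10.9%) to 27 (32.5%, against 10.2%) in X10 against insulin and from 1 (1.2%, against 17.8%) to 43 (51.8%, against 8.87%) in IGF1 against insulin. With the Gm and -ps share as a covariate it was 20 in glargine against vehicle (24.1%, against 9.36%) and 18 in insulin against vehicle (21.7%, against 12.6%). When tumors were scaled to the family median, which takes out a shift of the whole family, it was 6 in insulin against vehicle (7.23%, against 14.3%). In X10 against vehicle this scaling gave 12 members higher and 1 lower (15.7%, against 5.68%). The cause of these changes was not tested. No paired analysis was possible because no mouse number occurs in more than 1 group.

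Library sizes of 26.7 to 51.9 M reads limit mainly the low members Rpl10l, Rpl3l and Rpl39l. For the others the limit is the shared sequence: 47 members shared more than 20% of their 100-base windows with other transcripts. Dose, purity and the number of gene copies were not measured here.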

Other observations

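Set relative to the median of the other members, Rpl30 was closest over the 50 tumors to Eif3e (r = 0.79), Pcbp2 (0.79), Twf1 (0.78), Dcaf13 (0.78) and Cox6c (0.75). Eif3e encodes a subunit of initiation factor 3, Pcbp2 an RNA-binding protein, Twf1 an actin-binding protein and Cox6c a subunit of cytochrome c oxidase. All 5 lie on chromosome 15, as does Rpl30. At the other end of the chromosomes, the protein-coding genes of chromosome 16 had a median difference of -0.13 on the log2 scale between X10 and IGF1 and the other groups, with 14.9% above zero. Of the 3 members there, Rpl39l differed by -0.45 (unadjusted p = 0.222 by limma), Rpl35a by 0.01 and Rpl24 by 0.04. No cause of these differences between chromosomes was tested.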
